A study of Mus musculus with 9 samples.

Results

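Carboxylesterases of the liver were examined in normal mice and in diabetic mice with fatty liver disease and liver tumours, with and without insulin treatment. The 10 genes were Ces1b, Ces1c, Ces1d, Ces1e, Ces1f, Ces1g, Ces2a, Ces2c, Ces2e and Ces3a, taken by name from the 20972 gene symbols that could be assigned to probes of the array, and all 10 were found, with 13 probes in all. RNA from the liver of male mice at 20 weeks of age was hybridised to 1-colour Agilent arrays, in 3 groups of 3 arrays. STAM mice, of the strain C57B/6 J in the study's methods, received streptozotocin, a toxin of the insulin-secreting cells of the pancreas, as newborns and high-fat feed later on. In STAM-NON mice this was left untreated, STAM-INS mice were STAM mice injected with insulin glargine, a long-acting insulin, and Normal mice received neither streptozotocin nor the high-fat diet. The streptozotocin and the diet were thus shared by both STAM groups, and insulin was the treatment that separated them. The labels name the tissue as liver and do not say whether tumour tissue was part of it.

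Carboxylesterases are serine hydrolases, most of which reside in the endoplasmic reticulum of hepatocytes and cleave ester, amide and carbamate bonds. In the liver they hydrolyse drugs and other foreign esters, and some members hydrolyse stored triacylglycerol and cholesteryl esters, which links them to the lipids that leave the liver in lipoproteins. Mice carry many more copies of these genes than humans, where CES1 and CES2 are the main liver enzymes. In the RefSeq gene order all 20 mouse genes of the family lay on chromosome 8, with the Ces1 genes next to each other and the Ces2, Ces3 and Ces4a genes next to each other.

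Values are the centred log2 signal, that is the processed signal of a probe on the log2 scale, less the 75th percentile of its array. Levels of different genes were not compared, because each probe has its own brightness. All 13 probes were well above background on all 9 arrays. All STAM arrays lay on 1 slide and all Normal arrays on another, so that slide, scan and disease cannot be told apart in any comparison with Normal, whereas STAM-INS and STAM-NON shared a slide. On that slide, the STAM-NON arrays and STAM-INS array 1 lay in row 1, and STAM-INS arrays 2 and 3 in row 2. Row and insulin were thus partly mixed. The share of spots well above background was 46.2% to 51.1% in Normal, 47.8% to 63.1% in STAM-NON and 47.8% to 65.0% in STAM-INS.

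Every one of the 10 genes was lower in each of the 6 STAM arrays than in the lowest Normal array. Groups that did not overlap in this direction were seen in 26.1% of all 26289 tested probes for STAM-NON and in 27.1% for STAM-INS, against 10 of 10 carboxylesterases in both comparisons. Between STAM-NON and Normal, 5 of the 10 genes passed the threshold as lower (Ces1d, Ces1e, Ces1g, Ces2a and Ces2c), where 8.32% of all probes passed as lower. Between STAM-INS and Normal, 3 passed as lower (Ces1e, Ces2a and Ces2c), where 7.87% of all probes did. The median difference of the 10 genes was -1.26 on the log2 scale for STAM-NON against Normal, beside -0.11 over all probes, and -0.95 for STAM-INS against Normal, beside -0.07 over all probes. With arrays centred on spike-in controls instead, the medians for STAM-NON against Normal were -0.98 over the 10 genes and 0.17 over all probes. There 3 of the 10 passed, and 446 of all probes passed as lower. With the row of the array on its slide as a block, 0 of 10 passed in STAM-NON against Normal. Of all 26289 probes, 6 passed as lower there, and the median of the 10 genes was -1.40. Every STAM-NON array lay in row 1 and every Normal array in row 2, so row and group could hardly be told apart. In STAM-INS against Normal 2 of 10 passed with this block, and 1218 of all probes passed as lower. These comparisons share the 3 Normal arrays and are given side by side for that reason. In liver tissue measured as a whole, fewer cells that express a gene and less RNA per cell cannot be told apart.

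**Figure D1:**
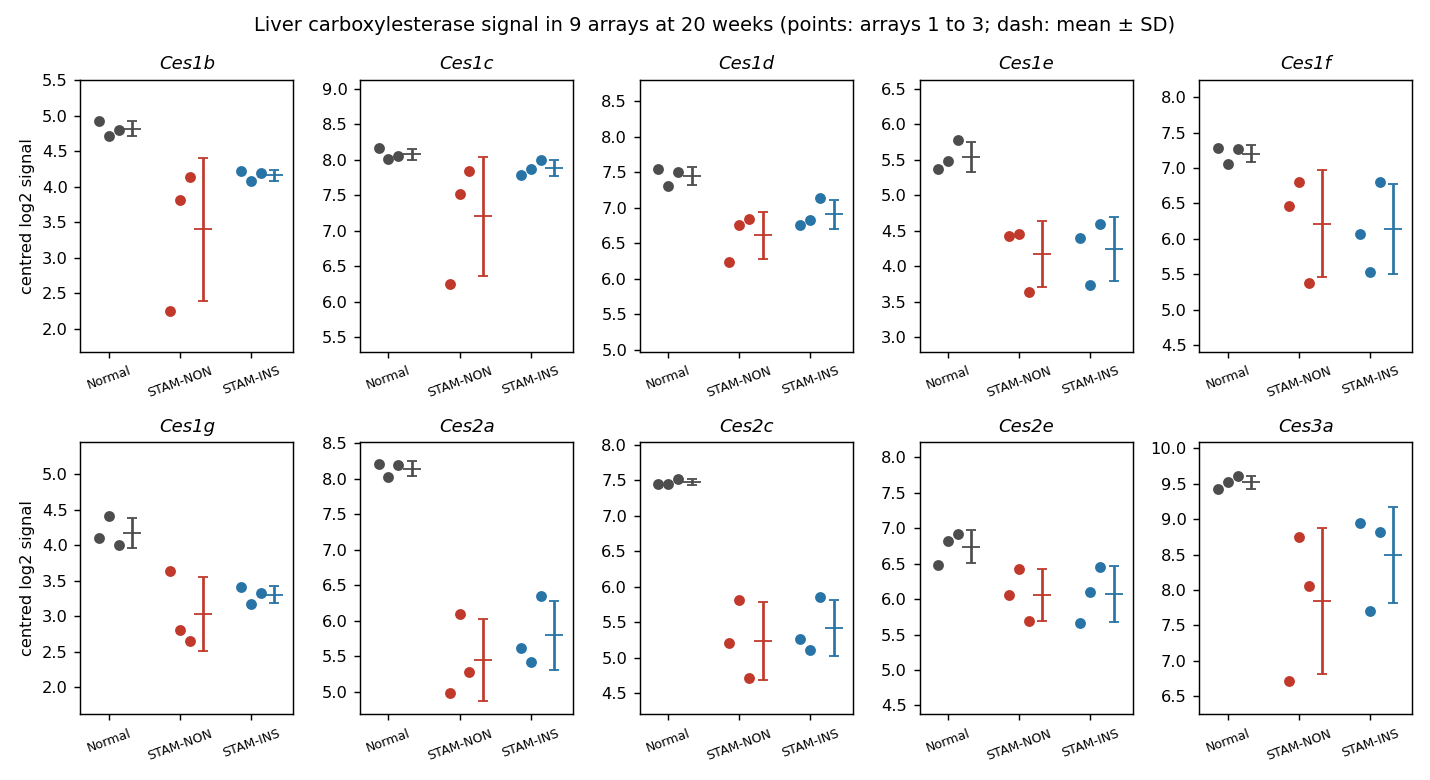
Centred log2 signal of the 10 carboxylesterases (y axis) in the Normal, STAM-NON and STAM-INS groups (x axis). Points are single arrays, dashes with bars are the mean ± SD of 3 arrays, and all panels span the same number of log2 units. Every STAM point lies below every Normal point of the same gene.

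Ces2a and Ces2c had the largest differences of the 10 genes from Normal in both STAM groups. The Ces2 genes are related to human CES2, which is known for the hydrolysis of prodrugs such as irinotecan and is also expressed in the intestine. Ces2a stood at 8.21, 8.02 and 8.20 in Normal arrays 1 to 3, at 4.98, 6.09 and 5.28 in STAM-NON arrays 1 to 3, and at 5.62, 5.42 and 6.34 in STAM-INS arrays 1 to 3. The highest STAM array was thus well below the lowest Normal array. Ces2a was 6.48-fold lower in STAM-NON than in Normal (-2.70 ± 0.32 SE on the log2 scale, adjusted p = 0.00516), which left 15.4% of the Normal signal. In STAM-INS it was 5.09-fold lower than in Normal (-2.35 ± 0.32, adjusted p = 0.00477).

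Ces2c, a close relative of Ces2a in the same row of genes, gave values of 7.45, 7.45 and 7.53 in Normal, 5.20, 5.81 and 4.71 in STAM-NON and 5.26, 5.11 and 5.86 in STAM-INS. It was 4.71-fold lower in STAM-NON (-2.23 ± 0.28 SE, adjusted p = 0.00655) and 4.17-fold lower in STAM-INS (-2.06 ± 0.28, adjusted p = 0.00515) than in Normal. These values are from its brightest probe, and its other probes, given below, did not pass in STAM-INS. The 3 Normal arrays differed little in Ces2c, with an SD of 0.05, beside 0.55 in STAM-NON and 0.40 in STAM-INS. Ces2e, a further gene of the same row, had the smallest difference of the 10 genes in STAM-NON against Normal. Its values were 6.48, 6.82 and 6.92 in Normal, 6.06, 6.42 and 5.69 in STAM-NON and 5.67, 6.10 and 6.45 in STAM-INS. The groups were separated only narrowly, and neither difference from Normal passed the threshold (-0.68, adjusted p = 0.0949 for STAM-NON, and -0.67, adjusted p = 0.108 for STAM-INS). A second, dimmer probe of Ces2e was -0.93 in STAM-NON against Normal (adjusted p = 0.159), and its groups overlapped.

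The upstream sequences of Ces2a and Ces2c are shown because these genes had the largest falls. Each is 300 bases from the RefSeq table, from 250 before to 50 after the annotated start, in build GRCm38.p6, on the plus strand, at chr8:104733753-104734052 for Ces2a and chr8:104846818-104847117 for Ces2c. Capitals mark matches to CCAAT and to TTGNNNAA (a form of the C/EBP site), on either strand.
Ces2a: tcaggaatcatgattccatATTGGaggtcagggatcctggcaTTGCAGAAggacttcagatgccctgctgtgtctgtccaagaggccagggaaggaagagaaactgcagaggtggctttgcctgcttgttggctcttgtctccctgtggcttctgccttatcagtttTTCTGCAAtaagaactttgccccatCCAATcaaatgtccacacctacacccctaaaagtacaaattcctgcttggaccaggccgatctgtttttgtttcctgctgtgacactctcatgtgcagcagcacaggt
Ces2c: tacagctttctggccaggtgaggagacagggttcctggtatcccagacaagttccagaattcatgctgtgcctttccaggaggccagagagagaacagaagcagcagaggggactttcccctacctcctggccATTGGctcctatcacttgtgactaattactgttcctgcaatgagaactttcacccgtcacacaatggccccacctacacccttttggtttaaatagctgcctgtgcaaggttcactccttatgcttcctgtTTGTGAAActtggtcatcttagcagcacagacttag

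Windows were given for 7 of the 10 genes, that is all but Ces1d, Ces1f and Ces3a. Ces1b had 2 starts, so there were 8 windows, and a gene was counted if any of its windows matched. TTGNNNAA was found in all 7, and in 36.7% of the 32851 windows of the table. CCAAT was found in 5 of 7, beside 37.4% of all windows. Of the other motifs searched, TATAAA was found in Ces1g alone (13.6% of all windows), AGGTCA, the half-site of nuclear receptors, in Ces2a alone (16.3%) and AGATAA, which GATA factors bind, in Ces1e and Ces1g (11.2%). GTTAAT (HNF1, 7.1%), TGACNNNGC (antioxidant response, 12.4%), CAAAGTCC (HNF4, 1.42%) and TGTTTAC (forkhead factors, 3.65%) had no match in these 8 windows. Both strands were searched for all 9 motifs. The genes arose by duplication and share sequence, so their windows are not independent of each other.

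Ces2c was read by 3 probes, which did not move alike. The probe with the highest signal, used above, ran close to Ces2a, and the SD of their difference over the 9 arrays was 0.29. The other 2 probes ran instead with the probe named for Ces2b, a neighbouring gene between Ces2a and Ces2c. The SD of the difference between them and Ces2b was 0.03 and 0.05, beside a median of 0.81 over the 153 pairs of the 18 tested probes of the family. One of these 2 probes read 4.16, 4.44 and 4.39 in Normal, 2.77, 2.78 and -0.22 in STAM-NON and 2.504, 1.18 and 1.93 in STAM-INS. Ces2b read 4.76, 5.06 and 5.004, then 3.32, 3.40 and 0.44, then 3.12, 1.78 and 2.54 in the same order. Both showed the lowest signal by far in STAM-NON array 3. The differences of the 2 other Ces2c probes in STAM-NON against Normal were -2.56 (adjusted p = 0.0537) and -2.60 (adjusted p = 0.0497). In STAM-INS against Normal they were -2.46 (adjusted p = 0.0636) and -2.42 (adjusted p = 0.0646), and neither passed. All 3 Ces2c probes were lower in every STAM array than in every Normal array. Which transcripts these probes read was not tested, and the genes are close copies of each other.

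**Figure D2:**
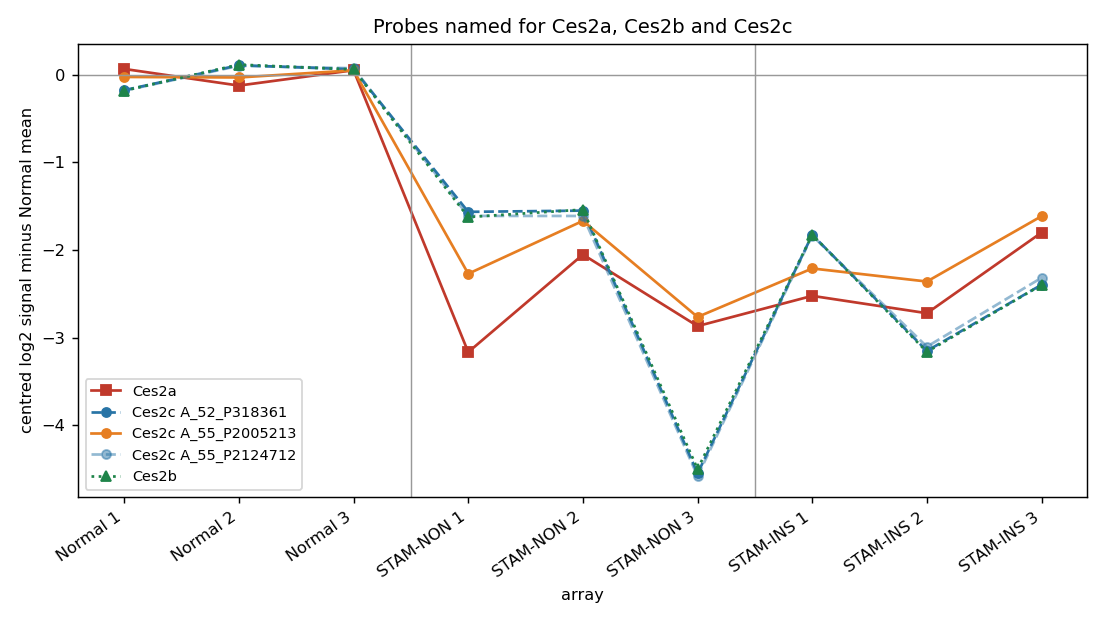
Centred log2 signal minus the Normal mean (y axis) on each of the 9 arrays (x axis) for the probes of Ces2a, Ces2c and Ces2b. The dashed Ces2c probes and Ces2b lie on top of each other and fall lowest in STAM-NON array 3, while the solid Ces2c probe follows Ces2a.

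Ces1d and Ces1g are the genes of the family best known for lipid handling in the liver. Ces1d encodes triacylglycerol hydrolase, which mobilises stored triacylglycerol for lipoprotein secretion, and loss of Ces1g in mice is known to give fatty liver. Ces1d read 7.55, 7.30 and 7.498 in Normal, 6.23, 6.76 and 6.85 in STAM-NON and 6.76, 6.83 and 7.13 in STAM-INS. It was 1.79-fold lower in STAM-NON than in Normal (-0.84 ± 0.18 SE, adjusted p = 0.0261), and in STAM-INS the difference of -0.54 did not pass (adjusted p = 0.0856). Ces1g read 4.10, 4.41 and 4.01 in Normal, 3.63, 2.80 and 2.66 in STAM-NON and 3.40, 3.17 and 3.33 in STAM-INS. It was 2.21-fold lower in STAM-NON (-1.14 ± 0.25 SE, adjusted p = 0.0245), while -0.87 in STAM-INS narrowly missed the threshold (adjusted p = 0.0519). The calls were narrow. Without STAM-NON array 1 the adjusted p of Ces1d was 0.0556, without STAM-NON array 3 that of Ces1g was 0.0633, and with any of the Normal arrays left out they ran from 0.0592 to 0.0802 and from 0.062 to 0.0787. The array with the lowest Ces1d, STAM-NON array 1, held the highest Ces1g of all 6 STAM arrays.

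Ces1e encodes egasyn, the esterase that holds beta-glucuronidase in the endoplasmic reticulum. It read 5.37, 5.48 and 5.78 in Normal, 4.43, 4.45 and 3.64 in STAM-NON and 4.39, 3.74 and 4.596 in STAM-INS. It was lower than in Normal by 2.58-fold in STAM-NON (-1.37 ± 0.28 SE, adjusted p = 0.0217) and by 2.46-fold in STAM-INS (-1.30 ± 0.28, adjusted p = 0.0245). With any of the Normal arrays left out neither call held (adjusted p from 0.0553 to 0.0739 and from 0.0578 to 0.0854), nor did the first without STAM-NON array 3 (0.0504) or the second without STAM-INS array 1 (0.0506) or 2 (0.0737). Gusb, which encodes beta-glucuronidase itself, did not pass in either comparison (0.22, adjusted p = 0.286, and 0.26, adjusted p = 0.223). Ces1f, the gene after Ces1e in the row, read 7.28, 7.06 and 7.26 in Normal, 6.47, 6.81 and 5.37 in STAM-NON and 6.07, 5.54 and 6.80 in STAM-INS. Its differences of -0.99 in STAM-NON (adjusted p = 0.126) and -1.07 in STAM-INS (adjusted p = 0.113) did not pass. Ces1e and Ces1f both had their lowest values in STAM-NON array 3 and STAM-INS array 2.

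Ces1c encodes an esterase that the liver secretes into plasma, and Ces1b lies beside it. Ces1b read 4.93, 4.72 and 4.801 in Normal, 2.25, 3.81 and 4.14 in STAM-NON and 4.22, 4.07 and 4.19 in STAM-INS. Ces1c read 8.17, 8.02 and 8.05 in Normal, 6.25, 7.51 and 7.84 in STAM-NON and 7.78, 7.87 and 7.996 in STAM-INS. Both were lowest in STAM-NON array 1, and the remaining STAM arrays lay closer to Normal, the highest Ces1c value in STAM-INS being just below the lowest in Normal. Neither passed in STAM-NON against Normal (Ces1b -1.42, adjusted p = 0.0542, and Ces1c -0.87, adjusted p = 0.119) or in STAM-INS against Normal (-0.65, adjusted p = 0.311, and -0.20, adjusted p = 0.732). Without STAM-NON array 1 the Ces1b difference from Normal was -0.84 and passed (adjusted p = 0.0294), and that of Ces1c was -0.40 (adjusted p = 0.126).

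Ces1b and Ces1c also had the most alike upstream sequences. Of the 21 pairs among the 7 genes with a window, this pair had 254 identical bases in a gapped alignment, beside 46 to 206 in the other 20. Identical runs of at least 12 bases were found in 2 of the 21 pairs, namely this one, with a longest run of 58 bases, and Ces2a with Ces2e, with a longest run of 17 bases. Both windows are shown for this reason, in build GRCm38.p6, on the minus strand, at chr8:93079891-93080190 for Ces1b and chr8:93131234-93131533 for Ces1c. Capitals mark runs of at least 12 bases that both windows hold.
Ces1b: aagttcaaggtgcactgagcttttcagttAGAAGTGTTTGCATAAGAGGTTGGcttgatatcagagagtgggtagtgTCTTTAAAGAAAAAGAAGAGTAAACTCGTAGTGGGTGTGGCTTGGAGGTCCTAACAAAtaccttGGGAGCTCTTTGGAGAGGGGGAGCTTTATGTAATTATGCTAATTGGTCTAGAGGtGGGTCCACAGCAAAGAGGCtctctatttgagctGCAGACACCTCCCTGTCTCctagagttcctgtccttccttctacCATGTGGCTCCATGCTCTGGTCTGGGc
Ces1c: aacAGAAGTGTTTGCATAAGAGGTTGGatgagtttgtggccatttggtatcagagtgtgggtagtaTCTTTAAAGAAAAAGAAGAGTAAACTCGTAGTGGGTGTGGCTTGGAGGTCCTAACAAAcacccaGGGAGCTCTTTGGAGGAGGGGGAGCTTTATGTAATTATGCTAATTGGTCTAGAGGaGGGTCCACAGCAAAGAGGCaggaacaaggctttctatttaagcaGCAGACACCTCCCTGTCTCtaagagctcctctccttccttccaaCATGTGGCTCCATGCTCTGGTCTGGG

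Ces3a read 9.42, 9.53 and 9.61 in Normal, 6.72, 8.75 and 8.06 in STAM-NON and 8.94, 7.71 and 8.82 in STAM-INS. The difference was -1.67 in STAM-NON (adjusted p = 0.0572) and -1.03 in STAM-INS (adjusted p = 0.198), and neither passed. As for Ces1b and Ces1c, the lowest value was that of STAM-NON array 1. Without this array the Ces3a difference of STAM-NON from Normal was -1.11 (adjusted p = 0.115).

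**Figure D3:**
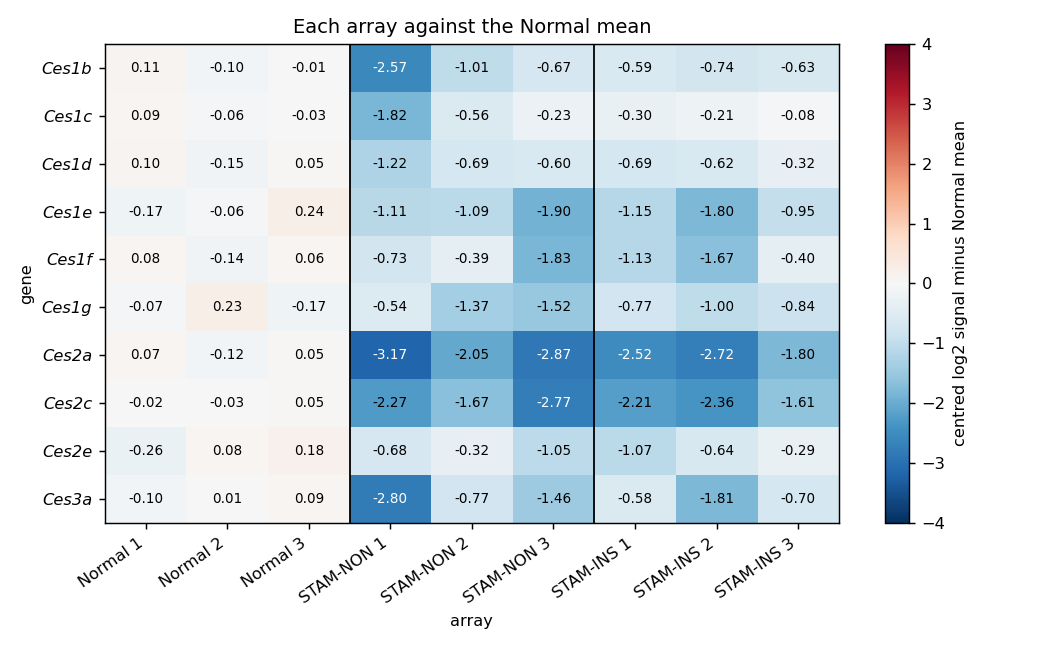
Centred log2 signal of each array (x axis) minus the mean of the 3 Normal arrays for the 10 genes (y axis), in log2 units given by colour and number. STAM-NON array 1 is lowest in Ces1b, Ces1c, Ces1d, Ces2a and Ces3a, and STAM-NON array 3 is lowest in Ces1e, Ces1f, Ces1g and Ces2c.

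The 10 genes were thus not all lowest on the same array. Per array, the 10 genes differed from the Normal mean by a median of -1.52, -0.89 and -1.49 in STAM-NON arrays 1 to 3 and -0.92, -1.34 and -0.66 in STAM-INS arrays 1 to 3. STAM-NON array 1 held the lowest value of 5 genes and STAM-NON array 3 that of 4. Along the chromosome, Ces1b, Ces1c and Ces1d, which follow each other, were lowest in STAM-NON array 1, and Ces1e, Ces1f and Ces1g, which come next, in STAM-NON array 3. Further along, Ces2a was lowest in STAM-NON array 1, Ces2c in STAM-NON array 3, Ces2e in STAM-INS array 1 and Ces3a in STAM-NON array 1. This is a description, with no test.

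Insulin treatment was compared within STAM mice to ask whether it moved these genes. No carboxylesterase passed the threshold between STAM-INS and STAM-NON by limma, where 0.0951% of all probes (25 of 26289) passed in either direction. An unadjusted p under 0.05 was found for 0 of 10, beside 8.98% of all probes (2362 of 26289). The values of STAM-INS and STAM-NON overlapped in all 10 genes, so that 0 of 10 were separated, beside 12.5% of all probes. The differences ran from -0.08 for Ces1f to 0.76 for Ces1b, with a median of 0.28, beside 0.02 over all probes, and the lowest adjusted p was 0.612. The largest were Ces1b (0.76, 95% interval -0.19 to 1.71), Ces1c (0.68, -0.12 to 1.48) and Ces3a (0.64, -0.50 to 1.79). These rested on STAM-NON array 1. Without it they were 0.19, 0.20 and 0.08. For Ces2a the difference was 0.35, with an interval from -0.38 to 1.07, and for Ces2c it was 0.17, with an interval from -0.48 to 0.82. The intervals of Ces2c, Ces1d (-0.13 to 0.72), Ces1e (-0.58 to 0.72), Ces1g (-0.30 to 0.83) and Ces2e (-0.55 to 0.58) left out a difference of 1 on the log2 scale in either direction, and those of the other 5 genes did not.

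**Figure D4:**
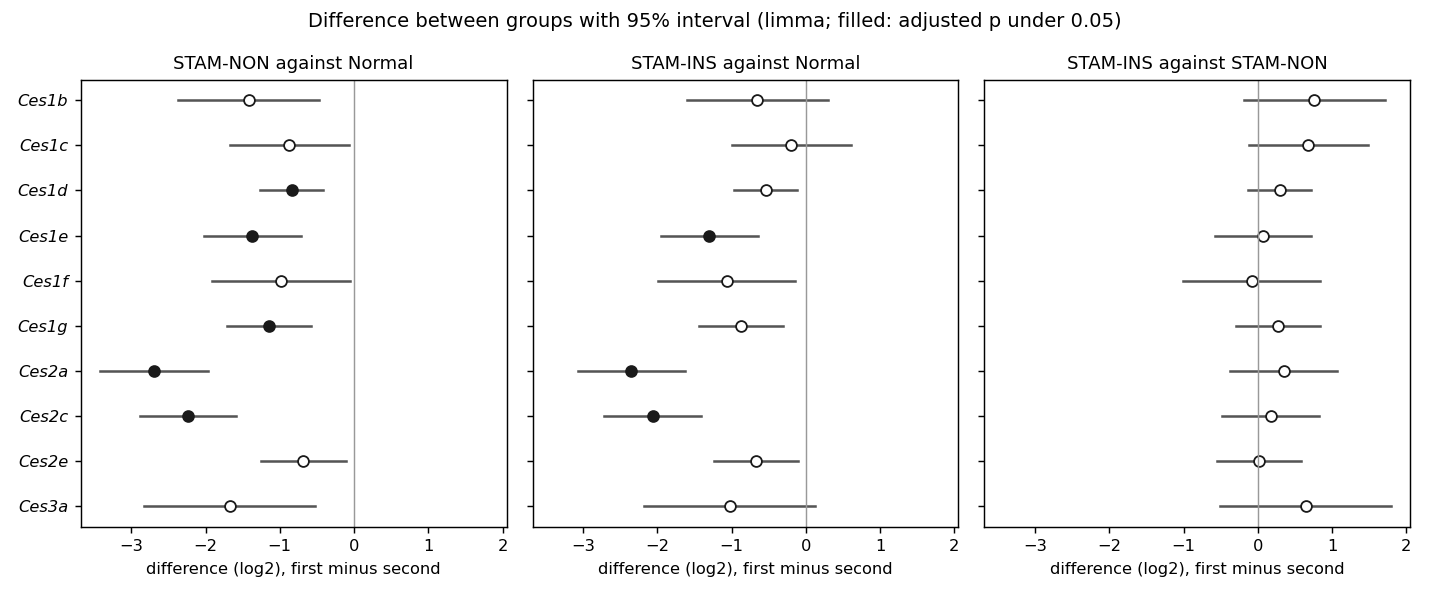
Difference between groups on the log2 scale (x axis) for the 10 genes (y axis) in the 3 comparisons. Points are the differences, lines are 95% intervals from limma, and filled points passed an adjusted p of 0.05. All 10 points lie below 0 in both comparisons with Normal, and every interval of STAM-INS against STAM-NON holds 0.

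The remaining family members were read as far as the array allowed. Of 10 further genes, 8 had a probe and 5 could be tested. Ces3b, the neighbour of Ces3a, was lower in STAM-NON than in Normal (-2.26 ± 0.52 SE, adjusted p = 0.0281), with 6.60, 6.85 and 6.73 in Normal, 3.33, 5.34 and 4.73 in STAM-NON and 5.82, 4.49 and 5.69 in STAM-INS. Its probe ran with that of Ces3a, with an SD of the difference of 0.26. Ces2b (-2.56, adjusted p = 0.0511), Ces1a (-1.59, adjusted p = 0.0769), Ces2g (-0.50, adjusted p = 0.14) and Ces4a (-0.49, adjusted p = 0.26) missed the threshold in STAM-NON against Normal. None of the 5 passed in STAM-INS against Normal or between the STAM groups. Ces2f, Ces2h and Ces5a were too dim to be tested, and for Ces1h and Ces2d-ps no probe was named here. The median of the 5 tested genes was -1.59 in STAM-NON against Normal, beside -0.11 over all probes. That median is the value of Ces1a itself. Its probe was well above background on all 3 Normal arrays but on only 1 of 3 in each STAM group. Ces1a could thus be tested only through its Normal arrays, and its differences from Normal involve signal near background.

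Other liver enzymes that cleave esters, epoxides and lactones were set beside the carboxylesterases. With Gusb, included as the partner of egasyn, 18 genes were tested. Over all probes, 8.32% were lower in STAM-NON and 7.87% in STAM-INS than in Normal. In STAM-NON against Normal 3 of the 18 genes were lower and none higher, with a median of -0.31. They were Afmid (-1.61, adjusted p = 0.0145), the formamidase of tryptophan breakdown, Pon1 (-1.07, adjusted p = 0.0131), the plasma paraoxonase made by the liver, and Aadac (-0.87, adjusted p = 0.032), an arylacetamide deacetylase. In STAM-INS against Normal 2 of 18 were lower, Afmid (-1.58, adjusted p = 0.0125) and Pon1 (-0.98, adjusted p = 0.0136). Afmid read 3.52, 3.94 and 3.55 in Normal, 2.20, 2.03 and 1.96 in STAM-NON and 2.65, 1.44 and 2.18 in STAM-INS, so that every STAM array lay below every Normal array.

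Among 14 tested genes of neutral lipid lipases and lipoprotein assembly, 1 was higher and 1 lower in STAM-NON than in Normal. Over all probes, 6.47% were higher and 8.32% lower in STAM-NON, and 5.37% higher and 7.87% lower in STAM-INS. Lpl, which releases fatty acids from circulating lipoproteins, was higher (1.99, adjusted p = 0.0134), and Lipc, the hepatic lipase, was lower (-0.95, adjusted p = 0.00926). In STAM-INS against Normal 2 were higher, Lpl (1.62, adjusted p = 0.0209) and Pnpla3, a lipid droplet protein, and 1 lower, Lipc (-0.49, adjusted p = 0.0494). Pnpla3 was well above background on 0 of the 3 Normal arrays and exceeded them by at least 3.48-fold in STAM-INS (adjusted p = 0.0373), where the bound sets the STAM-INS mean against the lowest detected signal of the Normal arrays or the probe's own signal, whichever was higher. The median of the 14 genes was near 0 (-0.02 and -0.05 in these comparisons).

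A list of 20 genes held receptors and factors known to act on drug metabolism genes, and Por, an enzyme of drug metabolism. Over all probes, 8.32% were lower in STAM-NON and 7.87% in STAM-INS than in Normal. Of the 20 genes, 2 were lower in STAM-NON than in Normal and none higher. These were Nr1i3 (-0.78, adjusted p = 0.0299), which encodes the xenobiotic sensor CAR, and Rxra (-0.59, adjusted p = 0.0238), its dimer partner. In STAM-INS against Normal 5 were lower, of which the 4 largest were Por (-1.95, adjusted p = 0.0019), the electron donor of cytochromes P450, Nr1i3 (-1.04, adjusted p = 0.0123), Ppara (-0.84, adjusted p = 0.0258), the fatty acid sensor, and Nr1i2 (-0.58, adjusted p = 0.033), the xenobiotic sensor PXR. Por read 7.71, 7.47 and 7.49 in Normal, 7.18, 7.02 and 6.56 in STAM-NON and 5.58, 5.40 and 5.84 in STAM-INS. The 3 STAM-INS arrays were thus the lowest of all in Por, and the 3 Normal arrays the highest. No gene of the 4 lists passed between STAM-INS and STAM-NON. Por was 2.48-fold lower in STAM-INS than in STAM-NON (-1.31 ± 0.19 SE, adjusted p = 0.0738) and missed the threshold. Its values in these groups did not overlap, as for 12.5% of all probes.

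Markers of the tissue and of other cells were read on the same arrays. Of 12 hepatocyte markers 11 were on the array and all 11 could be tested. Of these, 2 were lower in STAM-NON and 1 in STAM-INS than in Normal, where 8.32% and 7.87% of all probes were lower. The summed level of the 11 markers, as log2 of the sum, was 13.26 to 13.34 in Normal. It was 12.81 to 13.17 in STAM-NON and 13.10 to 13.25 in STAM-INS. Their median difference in STAM-NON against Normal was -0.32, beside -1.26 for the carboxylesterases. Over all probes, 6.47% were higher in STAM-NON and 5.37% in STAM-INS than in Normal. Markers of tumour and fetal hepatocytes were higher in 3 of 7 tested in STAM-NON and 4 of 7 in STAM-INS. Their summed level was 2.001 to 2.27 in Normal, 5.79 to 7.81 in STAM-NON and 6.42 to 8.03 in STAM-INS. Macrophage markers were higher in 4 of 10 and 3 of 10, with 6.80 to 7.39 in Normal, 7.83 to 8.67 in STAM-NON and 7.57 to 8.82 in STAM-INS. The part of these cells in the lower carboxylesterase signal was not tested.

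Single arrays also stood out in these markers. STAM-NON array 1, lowest in Ces1b, Ces1c, Ces1d, Ces2a and Ces3a, had the lowest summed hepatocyte level (12.81, beside 13.08 to 13.34 in the other 8) and the highest summed biliary level (5.99, beside 2.44 to 4.55). The biliary sum was carried by Krt23, singled out after its values were seen. Krt23 read 5.72, 4.26 and -0.99 in STAM-NON arrays 1 to 3. Krt19 (0.05), Krt7 (-1.26) and Spp1 (3.09) were also highest on STAM-NON array 1, while Sox9 and Cftr were not. STAM-NON array 3, lowest in Ces1e, Ces1f, Ces1g and Ces2c, had the highest neutrophil level (7.80, beside 3.16 to 5.01 in the other 8). Their part in the values of these arrays was not tested. Of the intestinal markers, read because Ces2 genes are also known from gut, 1 of 7 was bright enough to test (Fabp2), and it did not differ past the threshold. Of the biliary markers, 3 of 6 tested were higher in STAM-NON than in Normal and 1 of 6 in STAM-INS, where 6.47% and 5.37% of all probes were higher. Of the stellate cell markers 1 of 9 was higher in each STAM group. Of the endothelial markers 1 of 7 was higher in STAM-NON and 0 of 7 in STAM-INS. Of 3 pancreas markers, 1 was higher and 1 lower in STAM-NON, and 1 was higher in STAM-INS. Of 5 neutrophil markers, 0 passed in STAM-NON and 1 was lower in STAM-INS, and none of 4 lymphocyte markers or of the 1 adipocyte marker tested passed. No marker of any list passed between the STAM groups.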

How the data were processed

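Liver RNA was read on 9 Agilent 1-colour (Cy3) mouse arrays. The deposited files hold spot intensity on a linear scale from Feature Extraction 11.5.1.1, background-subtracted by the scanner software and not normalised between arrays per the file headers. The study's methods state no normalisation or test for the arrays. The sources differ on the RNA kit. Groups and replicate numbers came from the labels. The study's methods give 3 mice a group.

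Control spots and 161 to 217 outlier spots per array were left out, spots of 1 probe were averaged, and log2 values were centred on the 75th percentile of the 55681 probes of each array. Probes were tested if at least 0.5 of their spots were well above background on all arrays of at least 1 group, which left 26289. The number of arrays limits the precision. Probe accessions were matched without version to RefSeq symbols (GRCm38.p6), naming 27656 probes. That build differs from the array's, so probe positions are not given. The tested probe with the highest mean stood for a gene.

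The 3 groups entered 1 two-sided linear model on all 9 arrays (lmFit and eBayes of limma 3.58.1, R 4.3.3, 6 residual degrees of freedom), with Benjamini-Hochberg adjustment over all 26289 probes and a threshold of 0.05. The code was tested on simulated data. Promoter windows were aligned with Biopython 1.88. The members, gene lists and tests were chosen with earlier results of these data known. All members, all other carboxylesterases and, from each other list, up to 4 genes past the threshold by size are named. The alternatives covered background correction, scaling, the filter, the variance model, the arrays in the fit, slide row, replicate block, choice of probe and each array left out, and 1 more, the percentile over spots, was chosen after seeing the data.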

Additional observations from a re-analysis of the deposited data

How the results depend on the processing

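All 10 carboxylesterases stayed below Normal in both STAM groups under all 22 alternatives, but the number past the threshold moved. For STAM-NON against Normal it was 5, and it was 7 with normexp background correction, with median centring, with probes detected on all 9 arrays and with eBayes with trend and robust, 3 with arrays centred on the E1A spike-ins, 2 with no filter on dim probes, 3 with only the 2 groups compared, 0 with slide row as a block, and 2 to 8 with an array left out (2 without any of the 3 Normal arrays, 8 without STAM-NON replicate 2). For STAM-INS against Normal it was 3, and it was 5 with normexp background correction, 6 with only the 2 groups compared and 2 to 6 with an array left out (6 without STAM-NON replicate 1, and 2 without STAM-INS replicate 1, which leaves arrays of slide row 2 only, without STAM-INS replicate 2 or without any Normal array). Between STAM-INS and STAM-NON it was 0 throughout. Over all probes the number called lower moved too. For STAM-NON against Normal it was 2186 of 26289, 2972 with normexp, 1688 with median centring, 2760 with trend and robust and 446 on spike-ins. It was 2374 of 22812 detected on all 9 arrays, 87 of 55681 unfiltered, 1034 with only the 2 groups and 6 with slide row. With an array left out it ran from 353 to 3248. For STAM-INS against Normal it was 2070, 2520 with normexp, 2887 with only the 2 groups and 602 to 2616 with an array left out. Ces2a and Ces2c kept their calls under all alternatives except slide row as a block for STAM-NON against Normal (adjusted p = 0.178 and 0.191), where row 1 held every STAM-NON array and row 2 every Normal array. Ces1d, Ces1e and Ces1g each lost the STAM-NON call under 8 of 22, and Ces1e the STAM-INS call under 8 of 22. The cause was not tested. The slide as a random block was not run, since 1 slide held Normal arrays only and the other none.

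Directions reversed only between STAM-INS and STAM-NON, for genes with differences near 0. Ces2e was -0.019 with quantile normalisation, -0.20 on spike-ins, -0.025 with the percentile over probes detected on all arrays, -5.3e-05 with median centring, -0.39 with slide row as a block and -0.018 as the mean over its probes. On spike-ins Ces1e was -0.15 and Ces2c -0.045. With an array left out, Ces1e ran from -0.20 to 0.32, Ces1f from -0.50 to 0.22, Ces2c from -0.092 to 0.46 and Ces2e from -0.17 to 0.22. The median over all probes in STAM-NON against Normal was -0.11, 0.17 on spike-ins and -0.30 with median centring, and the calls over all probes were 1700 higher and 2186 lower, 2370 and 446 on spike-ins, and 15 in all (9 and 6) with slide row as a block.

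With the replicate block, 4 genes passed in STAM-NON against Normal, 2 in STAM-INS against Normal and 0 between the STAM groups. Over all probes, 838 and 932 were called lower in the first 2 comparisons. Same-numbered arrays correlated between -0.29 and 0.15 in their deviations from the group means, with 1 of 9 pairs over 0.1. Arrays with different numbers reached 0.28. Deviations from the mean of 3 arrays depend on each other, so these values cannot decide whether same-numbered samples were paired.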
